A study of Callithrix jacchus with 4 samples.

Results

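Interferon-stimulated genes are the genes that cells switch on when interferons signal a viral or inflammatory threat. A list of 41 of them, covering antiviral effectors, RNA sensors and the STAT and IRF transcription factors of the pathway, was read by gene symbol from a table of RNA-sequencing counts for 35108 genes. The table held 36 of the 41 symbols, 34 of these had at least 1 count, and 32 passed a filter on low counts and were tested. IFIT1, IRF9, GBP1, GBP2 and SAMD9 were not analysed here. The RNA came from frontal cortex of common marmosets, small monkeys of South America, all labelled adult. In 2 libraries the animals carried transgenes for mutant APP, driven by the human EF1α promoter, which is active in most cell types, and are labelled female. The other 2 libraries came from wild-type adults with no sex given. Cleavage of the protein made from APP releases amyloid-β, which forms the plaques of Alzheimer's disease, and the study asks how the cortex of the transgenic animals differs from wild type.

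Interferons bind receptors on the cell surface and activate the kinases JAK1, JAK2 and TYK2, which phosphorylate STAT transcription factors. Type I and type III interferons act mainly through a complex that contains STAT2 and IRF9, whereas interferon-γ acts largely through IRF1 further downstream. In the brain, microglia, astrocytes, endothelial cells and neurons can all respond.

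Total counts were 13462167 and 18932180 in transgenic libraries 1 and 2, and 12657323 and 13569838 in wild-type libraries 1 and 2. Values are in CPM, counts scaled to a common library size, and 3 counts amount to 0.166 to 0.232 CPM. All 6 pairs differed beyond counting noise, with chi-square values over genes of 8.02 to 53.4 for each degree of freedom, and the 3 largest values, 41.2 to 53.4, were those of pairs with transgenic library 2. Separate animals within a group are not spelled out in the labels, so the spread between them may be technical in part. The Y-linked gene KDM5D had 0 counts in both transgenic libraries and 2 and 243 in wild-type libraries 1 and 2, so sex and genotype cannot be fully told apart. APP was at 2143 and 2748 CPM in the transgenic libraries and at 1822 and 2182 CPM in the wild-type libraries, and the sources used here do not say on which gene reads of the transgene were counted.

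Interferon-stimulated genes stood well above wild type in transgenic library 2, which transgenic library 1 did not share. In transgenic library 2, 16 of the 32 tested genes were more than 2-fold above the wild-type mean, against 4.25% of all 16385 genes tested, and 0 were more than 2-fold below it, against 8.04% of all genes. In transgenic library 1, 0 of the 32 were more than 2-fold above the wild-type mean, against 1.93% of all genes, and 1 (ISG20) was more than 2-fold below, against 1.42% of all genes. The median difference from the wild-type mean was -0.05 on the log2 scale in transgenic library 1 and 0.99 in transgenic library 2, beside 0.00 and -0.01 over all genes tested. Between the transgenic libraries, 30 of 32 genes were higher in library 2 than in library 1, against 50.5% of all genes. The 2 wild-type libraries differed from each other by at most 0.76 on the log2 scale in any of the 32. In whole tissue, a change in the number of cells of a type and a change in RNA per cell cannot be told apart.

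**Figure D1:**
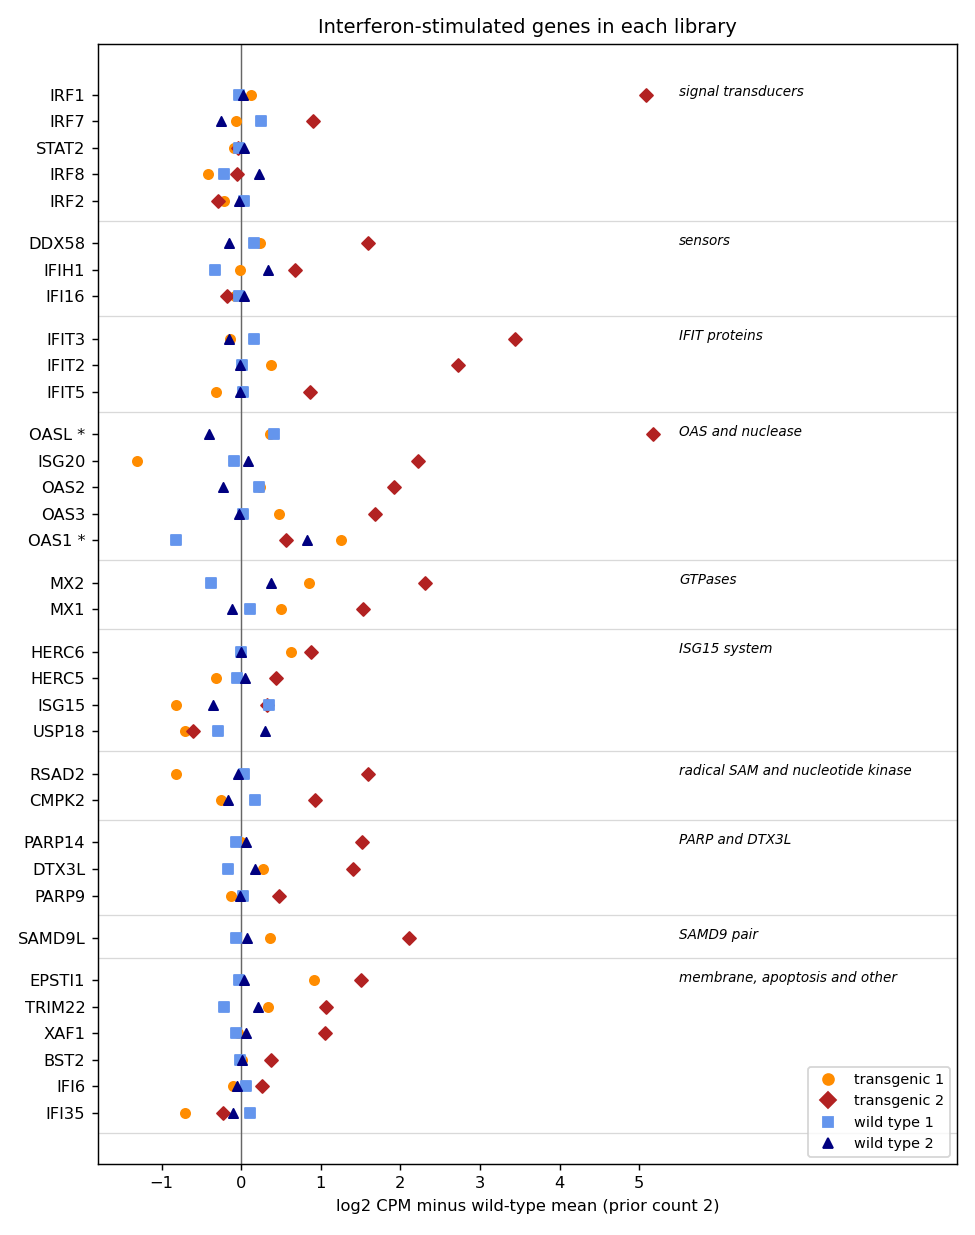
Each row is 1 of the 34 interferon-stimulated genes with a count, grouped by role, and each point is 1 library (transgenic 1 and 2, wild type 1 and 2) as log2 CPM minus the wild-type mean. An asterisk marks OAS1 and OASL, which did not reach 0.741 CPM in at least 2 libraries and were not tested. OASL was at 9.97 CPM in transgenic library 2 only. Transgenic library 2 lies to the right in most rows, up to 5.08 for IRF1 among tested genes, whereas USP18, IRF2, IFI35, IFI16, STAT2 and IRF8 lie left of 0 in both transgenic libraries.

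With both groups in the comparison, no gene passed. In edgeR's quasi-likelihood test, with p-values adjusted over all 16385 genes tested, 0 of the 32 were called, and 0% of all genes were. The adjusted p of the 32 genes lay between 0.79 and 0.94. DESeq2 and limma-voom also called 0 of the 32, where DESeq2 called 0.293% of all genes and limma-voom 0%. At an unadjusted edgeR p under 0.05 there were 7 of the 32 (MX1, EPSTI1, MX2, IRF1, IFIT2, OAS3 and SAMD9L), all higher in transgenic cortex, against 3.23% of all genes on that side and 2.39% on the lower side. By sign, 25 were higher and 7 lower, where 49.6% of all genes were higher, and the median log2 fold change was 0.69 beside 0.00 over all genes. In 12 genes both transgenic libraries lay above both wild-type libraries, against 19.5% of all genes, and in 5 both lay below, against 19.4%. The filter on low counts could admit a gene through a high transgenic library. EPSTI1, at 0.696 and 0.731 CPM in wild-type libraries 1 and 2, was below its limit of 0.741 CPM in both. That gene was thus tested only through the transgenic libraries, where it was high. ISG20 and RSAD2 also reached the limit in fewer than both wild-type libraries. Over the other 29 genes the median log2 fold change was 0.49, with 22 higher and 7 lower in sign, 6 at an unadjusted edgeR p under 0.05, 11 with both transgenic libraries above both wild-type libraries and 5 with both below. Of these 29, 13 were more than 2-fold above the wild-type mean in transgenic library 2 and 0 in library 1. The same counts over all genes at that limit were not computed, so the shares over the 16385 genes are not matched to these 29.

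**Figure D2:**
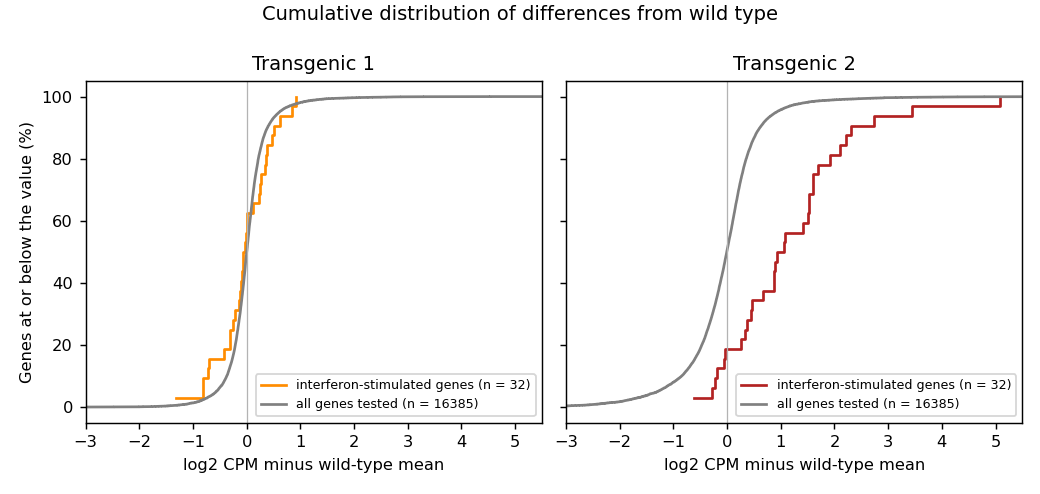
The curves give the percentage of genes at or below each difference from the wild-type mean (log2 CPM), for the 32 tested interferon-stimulated genes in colour and all 16385 genes tested in grey. In transgenic library 1 the curves cross near 0, with medians of -0.05 and 0.00. In transgenic library 2 the coloured curve lies to the right, with medians of 0.99 and -0.01. Both panels use the same wild-type libraries.

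Among the transcription factors, IRF1 differed most from wild type, and STAT2, IRF2, IRF7 and IRF8 stayed within 2-fold of it in both transgenic libraries. IRF1, a factor induced strongly by interferon-γ, was at 3.45 and 111 CPM in transgenic libraries 1 and 2, against 3.10 and 3.22 CPM in wild-type libraries 1 and 2. Only transgenic library 2 was high, and library 1 stood just above both wild-type libraries. The level in transgenic library 2 was 35.3 times that of the pooled wild-type libraries (exact 95% interval 28.4 to 44.4, counting error only), and 1.09 times (0.749 to 1.58) in transgenic library 1. Over both groups the log2 fold change was 4.19 ± 1.51 (SE, n = 2 per group; edgeR adjusted p = 0.79). STAT2, a subunit of the transcription factor complex of type I signalling, was at 38.8 and 40.2 CPM in the transgenic libraries, against 40.5 and 42.4 CPM in the wild-type libraries. Its transgenic values lay just below both wild-type values, with a log2 fold change of -0.07 ± 0.14 (SE, n = 2 per group; edgeR adjusted p = 0.90). IRF2, which competes with IRF1 for binding sites, was at 16.2 and 15.5 CPM in the transgenic libraries and at 19.3 and 18.6 CPM in the wild-type libraries. It was lower in both transgenic libraries, with a log2 fold change of -0.26 ± 0.18 (SE, n = 2 per group; edgeR adjusted p = 0.80). IRF7, the factor that amplifies type I interferon production, was at 4.19 and 8.31 CPM in transgenic cortex and at 5.26 and 3.66 CPM in wild type. IRF8, a factor of microglia and other myeloid cells, was at 9.33 and 12.02 CPM in transgenic cortex and at 10.7 and 14.6 CPM in wild type. The groups overlapped in both of these genes.

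The sensors of foreign nucleic acid differed among themselves. DDX58, which encodes the RNA sensor RIG-I, was at 19.3 and 49.6 CPM in transgenic libraries 1 and 2, against 18.2 and 14.6 CPM in wild-type libraries 1 and 2. Transgenic library 2 was well above the others and library 1 only just above wild-type library 1, with a log2 fold change of 1.07 ± 0.46 (SE, n = 2 per group; edgeR adjusted p = 0.79). IFIH1, which encodes MDA5, a sensor of long double-stranded RNA, was at 29.3 and 47.2 CPM in transgenic cortex and at 23.4 and 37.2 CPM in wild type. The groups overlapped, with a log2 fold change of 0.34 ± 0.33 (SE, n = 2 per group; edgeR adjusted p = 0.82). IFI16, a sensor of DNA, was at 41.5 and 38.7 CPM in transgenic cortex and at 42.8 and 44.8 CPM in wild type. It was slightly lower in both transgenic libraries, with a log2 fold change of -0.13 ± 0.14 (SE, n = 2 per group; edgeR adjusted p = 0.84).

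Of the IFIT genes, whose products bind viral RNA and block its translation, IFIT2 and IFIT3 stood 2.73 and 3.45 above the wild-type mean (log2 CPM) in transgenic library 2 and IFIT5 stood 0.87 above it. IFIT2 was at 67.4 and 346 CPM in the transgenic libraries, against 52.6 and 51.6 CPM in the wild-type libraries. Both transgenic libraries were above both wild-type libraries, library 1 by 1.29 times the pooled wild-type level (exact 95% interval 1.19 to 1.41, counting error only) and library 2 by 6.64 times (6.26 to 7.04). The log2 fold change of IFIT2 was 1.99 ± 0.73 (SE, n = 2 per group; edgeR adjusted p = 0.79). IFIT3, whose protein binds and stabilises IFIT1, was at 17.3 and 209.6 CPM in transgenic cortex and at 21.4 and 17.1 CPM in wild type. Only library 2 was high, at 10.9 times the pooled wild-type level (9.97 to 12.02), and library 1 was between the wild-type values. Its log2 fold change was 2.56 ± 1.07 (SE, n = 2 per group; edgeR adjusted p = 0.79). IFIT5 was at 14.8 and 33.6 CPM in transgenic cortex, against 18.6 and 18.1 CPM in wild type, with library 1 lowest and library 2 highest of the 4. IFIT, OAS and MX genes are families of similar sequence, so reads may be split between members.

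Of the oligoadenylate synthetases, which make the messenger that activates RNase L, OAS2 and OAS3 were high in transgenic library 2 and OAS1 was close to undetected. OAS3 was at 5.00 and 11.8 CPM in the transgenic libraries, against 3.64 and 3.51 CPM in the wild-type libraries. OAS2 was at 3.67 and 12.1 CPM in transgenic cortex, against 3.64 and 2.63 CPM in wild type. In both genes the transgenic libraries lay above the wild-type libraries, with OAS2 of library 1 level with wild-type library 1. The log2 fold changes were 1.24 ± 0.46 for OAS3 and 1.34 ± 0.61 for OAS2 (SE, n = 2 per group; edgeR adjusted p = 0.79 for each). OAS1 had 6 and 4 counts in the transgenic libraries and 0 and 4 in the wild-type libraries, too few to compare. OASL, a relative without synthetase activity that enhances RIG-I signalling, had 3 and 180 counts in transgenic libraries 1 and 2, against 3 and 1 in the wild-type libraries. Transgenic library 2 was thus 66.3 times the pooled wild-type level (exact 95% interval 25.4 to 246, counting error only), while the 3 other libraries were at or under 3 counts. ISG20, an RNA exonuclease, had 3 and 72 counts in transgenic cortex, against 9 and 11 in wild type, so the transgenic libraries lay on either side of wild type.

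The MX genes were above wild type in both transgenic libraries. MX1, which encodes a GTPase that traps viral nucleocapsids, was at 60.7 and 123 CPM in transgenic cortex, against 46.3 and 39.5 CPM in wild type. Transgenic library 1 was 1.42 times the pooled wild-type level (exact 95% interval 1.29 to 1.55, counting error only) and library 2 was 2.88 times (2.68 to 3.10). MX1 had the smallest p of the 32 genes, with a log2 fold change of 1.10 ± 0.35 (SE, n = 2 per group; edgeR adjusted p = 0.79, DESeq2 adjusted p = 0.24). MX2, its paralogue, was at 4.70 and 13.2 CPM in transgenic cortex, against 1.93 and 3.36 CPM in wild type. The groups did not overlap, although transgenic library 1 was nearer to wild-type library 2 than to transgenic library 2. The log2 fold change of MX2 was 1.76 ± 0.59 (SE, n = 2 per group; edgeR adjusted p = 0.79).

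Genes of the ISG15 system were within 2-fold of the wild-type mean in both transgenic libraries. ISG15, a ubiquitin-like protein that is attached to other proteins during the interferon response, was at 2.499 and 5.70 CPM in transgenic libraries 1 and 2, against 5.80 and 3.51 CPM in wild-type libraries 1 and 2. Transgenic library 2 lay within the wild-type range and library 1 below it. USP18, which removes ISG15 and restrains the type I receptor, had 9 and 13 counts in transgenic cortex and 12 and 20 in wild type. After scaling it was lower in both transgenic libraries, with a log2 fold change of -0.78 ± 0.48 (SE, n = 2 per group; edgeR adjusted p = 0.79). HERC5, the main ligase for ISG15 in human cells, was at 2.87 and 4.93 CPM in transgenic cortex and at 3.48 and 3.73 CPM in wild type, on either side of it. HERC6, a neighbouring ligase gene, was at 3.90 and 4.65 CPM in transgenic cortex, against 2.48 and 2.49 CPM in wild type. It was higher in both transgenic libraries by similar amounts, with a log2 fold change of 0.78 ± 0.32 (SE, n = 2 per group; edgeR adjusted p = 0.79).

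RSAD2 encodes viperin, which makes a chain-terminating nucleotide, and CMPK2 is a mitochondrial nucleotide kinase encoded next to it. RSAD2 had 5 and 46 counts in the transgenic libraries, against 10 in each wild-type library, with a log2 fold change of 0.98 ± 0.89 (SE, n = 2 per group; edgeR adjusted p = 0.82). CMPK2 was at 9.55 and 22.0 CPM in transgenic cortex, against 12.9 and 10.2 CPM in wild type, with a log2 fold change of 0.45 ± 0.43 (SE, n = 2 per group; edgeR adjusted p = 0.82). In both genes transgenic library 1 was below both wild-type libraries and library 2 above them.

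The ubiquitin ligase gene DTX3L and the ADP-ribosyltransferase genes PARP9 and PARP14 were highest in transgenic library 2. DTX3L was at 26.2 and 58.0 CPM in transgenic cortex, against 19.3 and 24.5 CPM in wild type, with a log2 fold change of 0.94 ± 0.40 (SE, n = 2 per group; edgeR adjusted p = 0.79). PARP14 was at 11.4 and 32.9 CPM in transgenic cortex, against 10.9 and 11.9 CPM in wild type, with a log2 fold change of 0.96 ± 0.50 (SE, n = 2 per group; edgeR adjusted p = 0.79). DTX3L of transgenic library 1 was just above both wild-type libraries, and PARP14 of library 1 lay between them. PARP9, the binding partner of DTX3L, was at 10.8 and 16.5 CPM in transgenic cortex and at 11.99 and 11.7 CPM in wild type. SAMD9L, a restrictor of poxviruses and of cell growth, was at 5.59 and 19.0 CPM in transgenic cortex, against 4.10 and 4.53 CPM in wild type. Both transgenic libraries were above wild type, with a log2 fold change of 1.51 ± 0.59 (SE, n = 2 per group; edgeR adjusted p = 0.79).

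The remaining genes ranged from above wild type in both transgenic libraries to below it in both. EPSTI1 had 20 and 41 counts in transgenic cortex, against 9 and 10 in wild type, and was higher in both libraries. Its log2 fold change was 1.39 ± 0.46 (SE, n = 2 per group, edgeR adjusted p = 0.79). EPSTI1 passed the low-count filter only through the transgenic libraries, so its difference carries that limit. TRIM22, an antiviral ubiquitin ligase, was at 5.59 and 9.41 CPM in transgenic cortex, against 3.79 and 5.12 CPM in wild type, with a log2 fold change of 0.75 ± 0.37 (SE, n = 2 per group; edgeR adjusted p = 0.79). XAF1, a gene that promotes apoptosis, was at 5.66 and 12.2 CPM in transgenic cortex and at 5.57 and 6.07 CPM in wild type, and was high in library 2 only. BST2, the gene for tetherin, which holds budding virus at the cell surface, was at 5.73 and 7.48 CPM in transgenic cortex and at 5.65 and 5.78 CPM in wild type. IFI6, an anti-apoptotic protein, was at 99.8 and 128 CPM in transgenic cortex and at 111 and 103 CPM in wild type. These last 2 genes differed from the wild-type mean by at most 0.38 on the log2 scale in either transgenic library. IFI35 was at 4.19 and 5.93 CPM in transgenic cortex and at 7.51 and 6.44 CPM in wild type, lower in both transgenic libraries, with a log2 fold change of -0.46 ± 0.30 (SE, n = 2 per group; edgeR adjusted p = 0.79). IFI44 and IFI44L had 0 counts in all 4 libraries, which allows up to 0.166 CPM in transgenic library 2 and up to 0.232 CPM in wild-type library 1.

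The direction over the list depended on transgenic library 2. Without it, 13 of the 32 genes were higher and 19 lower in sign, the median log2 fold change was -0.07, and edgeR called 0 of them, where it called 0.0183% of all genes. IFIT2 and MX1 then had log2 fold changes of 0.37 and 0.50 and were the 2 genes with an unadjusted p under 0.05 (edgeR adjusted p = 0.95 for each). Without transgenic library 1, edgeR called 13 of the 32 as higher and 0 as lower, where it called 3% of all genes as higher and 4.04% as lower. The 13 were IRF1, DDX58, IFIT2, IFIT3, IFIT5, OAS2, OAS3, ISG20, MX1, MX2, PARP14, DTX3L and SAMD9L, and the median log2 fold change over the 32 was 1.0002. ISG20 in that list did not reach the filter's limit in both wild-type libraries. Among the 32, the smallest edgeR adjusted p in that fit was that of IRF1, at 0.00037, with a log2 fold change of 5.14. This fit sets 1 library against 2 and takes the spread from the wild-type pair, so it compares transgenic library 2 with wild type and says nothing of the genotype. Without wild-type library 1 or 2 the median was 0.70 or 0.75, with 26 genes higher in sign in each case and 0 called.

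**Figure D3:**
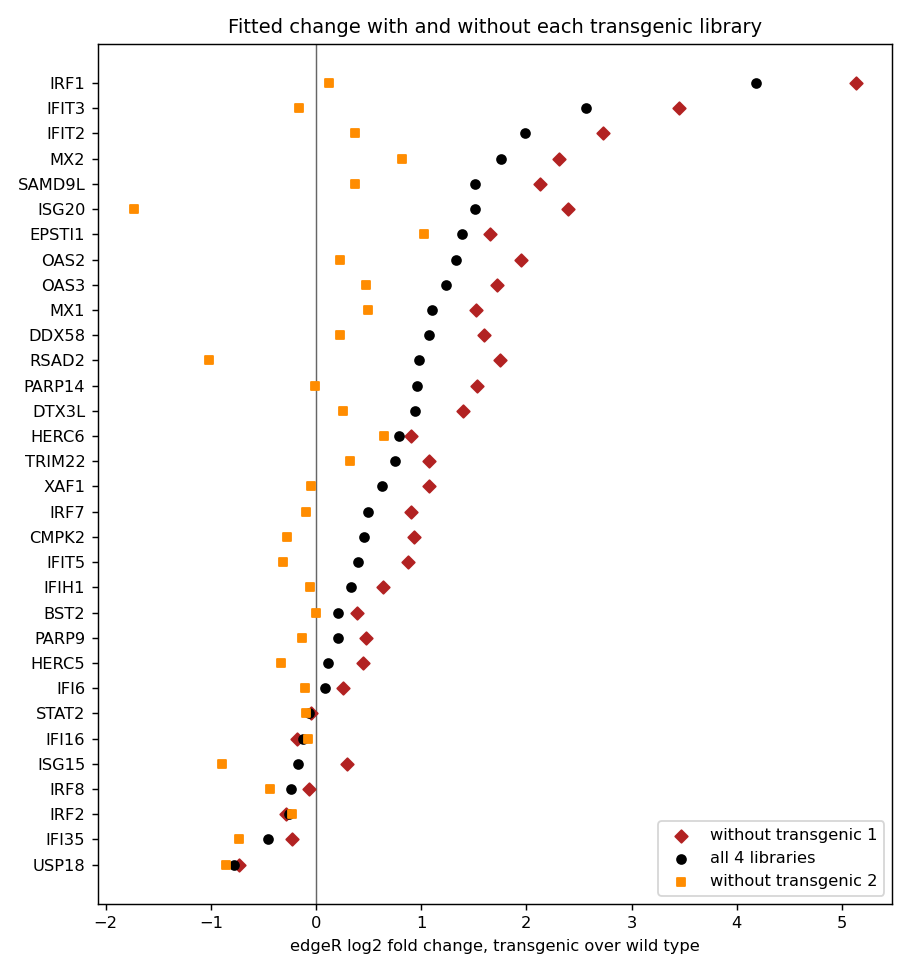
For each of the 32 tested genes, the edgeR log2 fold change of transgenic over wild type is shown without transgenic library 1 (diamonds), with all 4 libraries (black circles) and without transgenic library 2 (squares). Squares gather around 0, from -1.73 for ISG20 to 1.03 for EPSTI1, whereas diamonds reach 5.14 for IRF1. STAT2, IFI16, IRF8, IRF2, IFI35 and USP18 lie left of 0 in all 3 fits.

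Several of the genes lie next to each other in the genome, by their order in the RefSeq annotation of another marmoset assembly (calJac240_pri), where all 36 symbols matched. Neighbouring pairs with no coding gene between them were IFIT2 and IFIT3, MX1 and MX2, OAS1 and OAS3, OAS3 and OAS2, RSAD2 and CMPK2, HERC5 and HERC6, and DTX3L and PARP9. Neighbours did not always share a pattern. In transgenic library 2, DTX3L was 2.64 times the pooled wild-type level (exact 95% interval 2.38 to 2.92, counting error only) and PARP9 was 1.39 times (1.19 to 1.64). MX1 and MX2 were above both wild-type libraries in each transgenic library, while HERC6 was so in each and HERC5 in library 2 only. The sources used here do not say whether counting used the strand, and reads of overlapping genes may be mixed.

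Upstream of these genes, the receptors and kinases that were tested were within 2-fold of the wild-type mean in both transgenic libraries. The interferon genes in the table were not detected above the floor. A further list held 73 genes of the pathway outside the 41, of which 61 were in the table and 46 were tested. EdgeR called 0 of the 46 as higher and 0 as lower, and DESeq2 called 0. Over all genes edgeR called 0% and DESeq2 0.293%. An unadjusted edgeR p under 0.05 was reached by 4 of the 46, all higher, against 3.23% of all genes on the higher side and 2.39% on the lower. In this list too the filter could admit a gene through a high transgenic library. Of 8 interferon genes listed, 6 were in the table: IFNB1, IFNG, IFNE, IFNK and IFNL3 had 0 counts in every library, and IFNL1 had 0 and 3 counts in the transgenic libraries and 1 and 0 in the wild-type libraries. Receptor gene IFNAR1, of the type I receptor, was at 45.9 and 50.3 CPM in transgenic cortex, against 43.2 and 42.2 CPM in wild type. For the interferon-γ receptor, IFNGR1 was at 42.5 and 48.7 CPM in transgenic cortex and at 41.7 and 42.7 CPM in wild type, and IFNGR2 was at 53.4 and 73.1 CPM in transgenic cortex and at 54.1 and 46.7 CPM in wild type. All 3 tested receptor genes were above both wild-type libraries in transgenic library 2, against 39.9% of all genes tested. IFNLR1, of the type III receptor, had at most 3 counts in any library. The interferon symbols IFNA1 and IFNL2 and the receptor symbols IFNAR2 and IL10RB were not in the table, so their levels are not known here.

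The kinases JAK1, JAK2 and TYK2 were within 2-fold of the wild-type mean in both transgenic libraries. JAK1 was at 105 and 104 CPM in transgenic cortex and at 105 and 110.3 CPM in wild type, JAK2 at 28.9 and 33.0 CPM in transgenic cortex and at 28.5 and 24.1 CPM in wild type, and TYK2 at 16.1 and 14.2 CPM in transgenic cortex and at 19.0 and 15.1 CPM in wild type.

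Among genes of sensing, restraint and response, GBP5, SOCS3 and STING1 stood 4.82, 4.57 and 4.03 above the wild-type mean (log2 CPM) in transgenic library 2, beside 5.08 for IRF1. STING1, the adaptor of cytosolic DNA sensing, had 19 and 221 counts in transgenic cortex, against 5 and 13 in wild type. It was higher in both libraries (log2 fold change 3.34 ± 1.13 SE, n = 2 per group, edgeR adjusted p = 0.79). In wild-type library 1 it was at 0.387 CPM, under the filter's limit of 0.741 CPM, so it passed with the help of a transgenic library. IRF3, the factor that first induces type I interferon, was at 18.4 and 18.1 CPM in transgenic cortex and at 23.4 and 25.5 CPM in wild type, lower in both libraries by similar amounts (log2 fold change -0.42 ± 0.17 SE, n = 2 per group; edgeR adjusted p = 0.79). SOCS3, a feedback inhibitor of JAK kinases that cytokines of the IL6 family induce strongly, had 19 and 621 counts in transgenic cortex, against 17 and 18 in wild type. PTPN2, a phosphatase that acts on JAK1, was at 17.1 and 25.3 CPM in transgenic cortex and at 15.9 and 13.6 CPM in wild type. GBP5, a guanylate-binding GTPase induced by interferon-γ, was at 4.92 and 87.1 CPM in transgenic cortex, against 3.48 and 2.49 CPM in wild type. LGALS3BP, a secreted glycoprotein, was at 15.4 and 22.8 CPM in transgenic cortex, against 6.65 and 12.2 CPM in wild type. The ligands of the chemokine receptor CXCR3, chosen after their values were seen, had the largest differences of the 73 genes: CXCL10 had 4 and 2551 counts in transgenic cortex, against 3 and 3 in wild type. CXCL9 had 2 and 456 counts in transgenic cortex, against 0 and 2 in wild type, and CXCL11 had 0 and 1861 in transgenic cortex, against 0 and 1 in wild type.

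**Figure D4:**
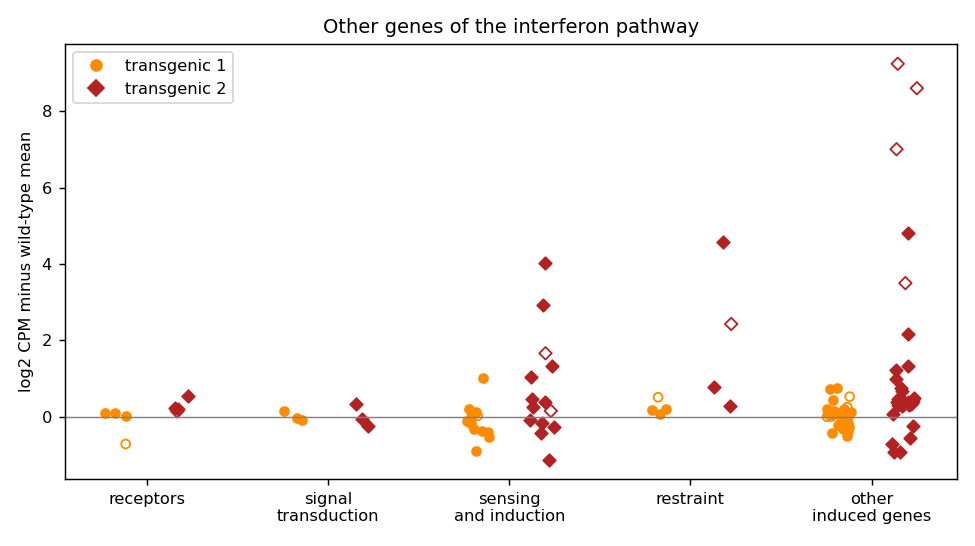
Points are other genes of the interferon pathway with a count, as log2 CPM minus the wild-type mean, in transgenic library 1 (circles) and library 2 (diamonds), by class. Open symbols are genes that did not reach 0.741 CPM in at least 2 libraries and were not tested, some of them high in transgenic library 2. The ligand IFNL1 is left out. Tested receptors and kinases lie between -0.25 and 0.54. In library 2, GBP5 reaches 4.82, SOCS3 4.57 and STING1 4.03 among tested genes and CXCL11 9.25 among the others.

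Markers of several cell types moved with transgenic library 2. Neuronal markers were abundant in every library, with summed levels of 8317 and 9953 CPM in the transgenic libraries and 8275 and 8887 CPM in the wild-type libraries over 6 genes. They did not share a direction. RBFOX3 and SNAP25 were below both wild-type libraries in each transgenic library, SYT1, GAD1 and GAD2 were above both in each, and the groups overlapped in SLC17A7. Of 7 markers of neutrophils and monocytes, 5 were above both wild-type libraries in transgenic library 2, against 39.9% of all genes tested. Only 2 of the 7 passed the filter on low counts, so that share is not matched to the 7. The summed level of all 7 was 6.25 and 256 CPM in the transgenic libraries, against 6.4996 and 9.95 CPM in the wild-type libraries. S100A9 made most of the sum in library 2, with 3 and 3705 counts in transgenic libraries 1 and 2, against 10 and 8 in wild type, and S100A8 had 0 and 585 counts, against 4 and 0. S100A12 had 2 and 241 counts in transgenic cortex, against 8 and 0 in wild type. The other 4 markers were not high in library 2: FCN1 and CXCR2 had 1 count each there, MPO had 7 counts in each transgenic library, against 5 in each wild-type library, and CSF3R was at 5.14 and 4.37 CPM in transgenic cortex, against 4.18 and 8.70 CPM in wild type. FCN1 and MPO are among the 5 although FCN1 rests on 1 count and MPO was at 0.388 CPM in that library, against 0.387 and 0.366 CPM in wild type. Of the 3 leukocyte markers, PTPRC, the gene for CD45, was at 4.92 and 25.4 CPM in transgenic cortex, against 8.12 and 7.39 CPM in wild type. All 3 summed to 78.9 and 146 CPM in transgenic cortex and 73.4 and 92.8 CPM in wild type, most of it CORO1A. Of T cell markers, CD3D, CD3E and CD3G had 0 counts in transgenic library 2, whereas CD2 had 28 and 119 counts in the transgenic libraries, against 40 and 66 in the wild-type libraries. The 6 T cell markers in the table, with CD247 the most abundant in each library, summed to 20.8 and 19.8 CPM in transgenic cortex and 19.96 and 21.9 CPM in wild type. The 4 B cell markers had 3 and 6 counts in all in the transgenic libraries and 10 and 4 in the wild-type libraries.

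Microglial markers, 11 genes, summed to 163 and 135 CPM in the transgenic libraries and 253 and 303 CPM in the wild-type libraries, lower in both. Endothelial markers, 6 genes, summed to 163 and 129.96 CPM in transgenic cortex and 273 and 195 CPM in wild type. Astrocyte markers, 7 genes, summed to 6314 and 2280 CPM in transgenic cortex and 7126 and 5893 CPM in wild type, and 6 oligodendrocyte markers to 2482 and 905 CPM in transgenic cortex and 2525 and 1998 CPM in wild type. Both glial sums were low in transgenic library 2 only. SLC1A2 was the most abundant astrocyte marker in each library. In transgenic library 2, GFAP of the astrocyte list and MAG of the oligodendrocyte list lay within the wild-type range. The 4 fibroblast markers summed to 135 and 30.3 CPM in transgenic cortex and 23.8 and 96.9 CPM in wild type, and the 2 red cell markers in the table to 0.514 and 6.09 CPM in transgenic cortex and 14.5 and 1.02 CPM in wild type. No marker of any list reached an adjusted p of 0.05 in edgeR's test. DESeq2 called 1, the microglial gene TYROBP, at 7.35 and 6.26 CPM in transgenic cortex, against 15.01 and 19.6 CPM in wild type (DESeq2 adjusted p = 0.044). The part of these cell types in the levels of interferon-stimulated genes was not tested.

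**Figure D5:**
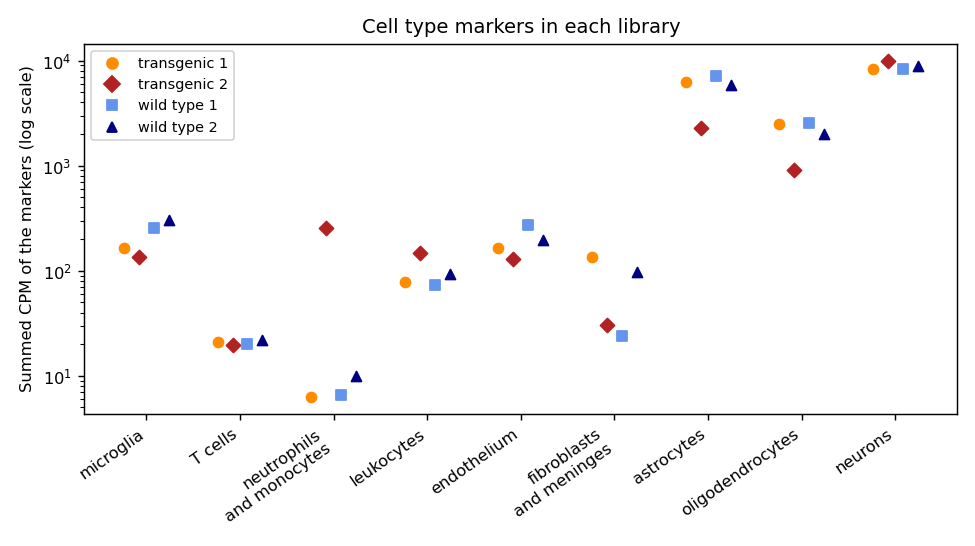
Summed CPM of marker genes for 9 cell types (log axis), 1 point per library, transgenic libraries left of wild-type libraries. Neutrophil and monocyte markers stand at 256 CPM in transgenic library 2 and at 6.25 to 9.95 CPM in the other 3, and astrocyte and oligodendrocyte markers are lowest in transgenic library 2. B cell and red cell markers are not drawn.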

How the data were processed

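The deposited values are raw read counts, whole numbers for each gene symbol, in 1 column per library and not normalized by the authors. STAR 2.5.3a, featureCounts 1.5.2 and kallisto 0.46.2 are named in the submitters' processing notes, but not what each was used for. No genome build or annotation is stated in these sources. Members, gene lists and tests were chosen with earlier results of these data known. In R 4.3.3, edgeR's filterByExpr kept 16385 of 35108 genes (a minimum count of 10, or 0.741 CPM, in at least 2 libraries), and TMM scaled the library sizes. Genotype was the single term of the quasi-likelihood F-test (edgeR 4.0.16), with 2 residual degrees of freedom and Benjamini-Hochberg adjustment over the 16385 genes (threshold 0.05). Differences per library use log2 CPM with a prior count of 2. Every member is named, and full statistics go to the 2 members per role with the smallest p and to those with a mean count of at least 20 whose groups do not overlap; of the other pathway genes, the ligands, receptors and signal transducers with a count and the 2 genes per other class with the smallest p are named. The result of 1 gene that met this rule is not reported here. Fold intervals are exact binomial (95%) and, like the floor of 3 counts, cover counting error only. Alternatives were DESeq2 1.42.0, limma-voom (limma 3.58.1), other scalings and filters, the replicate number as a block and leaving out each library. With 2 libraries per group the smallest two-sided p of an exact permutation test is 0.33, so none was run. The steps were also run on simulated data, in which libraries of a group shared the same mean level of each gene. That run checked only the sign of called genes, so it does not bear on the 0 calls here.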

Additional observations from a re-analysis of the deposited data

How the results depend on the processing

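No member was called, and 25 of 32 were higher and 7 lower in sign, under DESeq2, limma-voom, RLE scaling, library totals without scaling and the replicate block. The median log2 fold change over the members was 0.69, and 0.51 to 0.78 under these and the 2 other filters. Over all genes DESeq2 called 48 and edgeR without the low-count filter 5, against 0 in edgeR with it; the cause was not tested. Over genes, the deviations of replicate 1 from the group mean had a correlation of -0.14 between the groups. With 2 libraries per group this cannot show whether the replicate numbers pair animals. With the replicate block the median was 0.56 and 0 genes were called, and with the numbers crossed, chosen after seeing the data, 0.57 and 0. Leaving out 1 library at a time moved the genes called between 0 and 1154, the members called between 0 and 13 and the median between -0.067 (without transgenic library 2) and 1.0002 (without transgenic library 1). Among these fits the log2 fold change of 14 members changed sign, with ranges of -0.092 to 0.90 for IRF7, -0.45 to 0.00077 for IRF8, -0.054 to 0.71 for IFIH1, -0.16 to 3.45 for IFIT3, -0.32 to 0.87 for IFIT5, -1.73 to 2.39 for ISG20, -0.90 to 0.29 for ISG15, -0.33 to 0.45 for HERC5, -1.02 to 1.75 for RSAD2, -0.28 to 0.93 for CMPK2, -0.14 to 0.48 for PARP9, -0.0077 to 1.53 for PARP14, -0.11 to 0.26 for IFI6 and -0.045 to 1.07 for XAF1. Genes with few counts, such as USP18 and RSAD2, limit the precision of these values.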
